A study of Rattus norvegicus with 77 samples.

Results

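Myotubularins are lipid phosphatases, and 10 genes of the family were followed in rat sperm RNA: Mtm1, Mtmr1, Mtmr2, Mtmr3, Mtmr4, Mtmr6, Mtmr7, Mtmr9, Mtmr12 and Mtmr14. Each gene was read from its brightest probe set (the probes of 1 transcript) among those whose platform annotation gives 1 gene symbol. Of the 10 genes, 9 had such a probe set, and each of the 9 had exactly 1. Mtmr1 had none under its own symbol and gave no value. The array held 29214 probe sets, of which 15310 carried 1 symbol, 323 carried several and 13581 carried none. The family was selected on the log2 difference of Mtm1 between the HD and water groups, so its values in that comparison are given as a description with no test.

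The sperm came from adult male Fischer 344 rats, 1 array per rat, 77 arrays in all. The HD group (19 rats) received 2,5-hexanedione, a toxicant that acts on the microtubules of Sertoli cells, at 0.33% in the drinking water for 3 months, and the water group (20 rats) drank control water over the same 3 months. The HD-recovery group (20 rats) had the same exposure followed by 3 months without HD, and the water-recovery group (18 rats) was its control of the same age. Sperm were collected from the cauda epididymides and passed through a buffer that lyses somatic cells. The study checked purity by microscopy and by ribosomal RNA peaks, and reports that somatic cells and such peaks were absent. A value covers the RNA of the sperm and of any other cell left in the pellet. In such pooled RNA, fewer cells of a type and less RNA per cell cannot be told apart.

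Myotubularins take the phosphate off the third position of the inositol ring of phosphatidylinositol 3-phosphate (PI3P) and of phosphatidylinositol 3,5-bisphosphate, the lipids that mark endosomes and autophagosomes. The active members work with catalytically dead relatives: Mtmr12 binds and steadies Mtm1 and Mtmr2, and Mtmr9 binds Mtmr6 and Mtmr7. In humans, mutations of MTM1 cause X-linked myotubular myopathy and mutations of MTMR2 cause a form of Charcot-Marie-Tooth neuropathy. Male mice without Mtmr2 have failing spermatogenesis, and Mtmr2 is expressed in both germ cells and Sertoli cells of the testis.

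Values are deposited log2 signals, and the probe sets of different genes are not comparable in level. Of 15 measured sperm and spermatid markers, 14 had a mean signal above the 50th percentile of all probe sets, against 20 of 24 leukocyte and macrophage markers, 4 of 6 erythroid markers, 3 of 7 Sertoli cell markers, 8 of 14 epididymal epithelium markers and 6 of 11 fibroblast and muscle markers. Of the 9 members, 8 had a mean signal above the 50th percentile, and Mtmr14 did not. Within groups, 41.9% of the variance lay on 1 component. By their median correlation with the rest of their group, 10 arrays stood apart: HD replicates 3, 4, 5 and 14, water replicate 20, HD-recovery replicates 2, 9 and 16, and water-recovery replicates 12 and 15. The HD, water and water-recovery arrays among them scored above 0 on the component, and the 3 HD-recovery arrays scored below 0. All 77 arrays were kept, and results that rest on these 10 are also given without them.

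Mtm1, the founding member and the partner of Mtmr12, was the member with the widest difference. In arrays labelled HD the log2 value of its probe set 10892884 had a lowest of 7.51, a median of 8.25 and a highest of 10.15. In arrays labelled water the lowest was 8.31, the median 9.86 and the highest 10.80. The groups overlapped, but 18 of 19 HD arrays were under the median of water arrays, 10 HD arrays lay below every water array and 6 water arrays lay above every HD array. The means were 8.41 ± 0.70 in HD arrays and 9.67 ± 0.70 in water arrays (SD, n = 19 and 20). The log2 difference, HD minus water, was −1.26 (SE 0.21), a level 2.39-fold lower in HD. This sign runs opposite to the array value that the study lists for Mtm1, an increase. The study's quantitative PCR of other rats after 3 months of HD listed Mtm1 as nearly unchanged, with no mark of significance. The reversal was not particular to Mtm1: among the 138 probe sets altered over the whole array (limma), 133 had a value lower in arrays labelled HD and 5 a higher one, whereas the study describes most of its altered transcripts as elevated. The groups are named by their labels, and exchanging the HD and water labels would turn every sign of HD minus water given here. It would also change the comparisons across the recovery and the interaction, for every member. The 3 highest HD values, 10.15, 9.44 and 9.31, came from replicates 14, 4 and 3, which stood apart. Without the arrays that stood apart, Mtm1 averaged 8.14 ± 0.44 in 15 HD arrays and 9.63 ± 0.69 in 19 water arrays (SD), a log2 difference of −1.49.

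The stretch before the gene's start was read for the members with a RefSeq promoter in GRCr8, the rat assembly of the sequence tables (7 of the 10, with none listed for Mtmr3, Mtmr7 and Mtmr9). RefSeq places Mtm1 on chromosome 6 and Mtmr1 on chromosome 18, whereas in human and mouse both are neighbours on the X chromosome. In the deposited values with group means removed, Mtmr12 moved with Mtm1 (Pearson's r = 0.61) and Mtmr14 did not (−0.07). Both relations depended on the processing. With the first component removed too, Mtmr12 had r = 0.04 with Mtm1, and after quantile normalization Mtmr14 had 0.32. Shown are the 250 bases before the start of Mtm1, whose values differed most, of its partner Mtmr12 and of Mtmr14. They lie at chr6:6252875-6253124 (minus strand), chr2:62950639-62950888 (plus strand) and chr4:147942372-147942621 (plus strand), and capitals mark any match, on either strand, to the core of the cAMP response element (TGACG), the E-box (CACGTG), the CCAAT box (CCAAT) or the GC box (GGGCGG).
Mtm1: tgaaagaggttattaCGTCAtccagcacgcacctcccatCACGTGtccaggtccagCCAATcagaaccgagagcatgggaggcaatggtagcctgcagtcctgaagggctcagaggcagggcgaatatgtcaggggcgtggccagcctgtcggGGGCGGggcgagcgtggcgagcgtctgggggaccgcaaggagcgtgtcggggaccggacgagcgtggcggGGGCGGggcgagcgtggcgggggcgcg
Mtmr12: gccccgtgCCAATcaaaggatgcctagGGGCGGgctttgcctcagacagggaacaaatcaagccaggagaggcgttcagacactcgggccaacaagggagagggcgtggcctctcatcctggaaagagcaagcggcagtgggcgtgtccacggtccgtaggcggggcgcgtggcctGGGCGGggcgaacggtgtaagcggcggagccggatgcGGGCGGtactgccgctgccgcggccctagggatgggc
Mtmr14: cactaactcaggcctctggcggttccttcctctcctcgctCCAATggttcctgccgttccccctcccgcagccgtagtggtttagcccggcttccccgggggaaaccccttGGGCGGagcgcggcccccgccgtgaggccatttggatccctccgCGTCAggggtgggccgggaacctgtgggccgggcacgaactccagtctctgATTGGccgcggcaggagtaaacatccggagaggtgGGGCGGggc
The Mtm1 stretch held 1 core site, 1 E-box, 1 CCAAT box and 2 GC boxes, with no overlap between them. The Mtmr12 stretch held 1 CCAAT box and 3 GC boxes, and the Mtmr14 stretch 1 core site, 2 CCAAT boxes and 2 GC boxes. Among 33469 rat promoters of this length, 18.2% held the core site, 5.59% the E-box, 34.0% the CCAAT box, 30.5% the GC box and 12.9% the TATA box (TATAAA). The E-box was found in Mtm1 alone among the 7 members, and the TATA box in Mtmr6 alone. The 3 stretches shown were 68.0%, 68.0% and 68.4% G and C, against a median of 51.2% over all promoters. The members not shown were at 64.4% (Mtmr1), 60.4% (Mtmr6), 53.2% (Mtmr4) and 46.0% (Mtmr2).

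The question of whether other members differed with the exposure was asked of the 8 members besides Mtm1. None of the 8 was altered between HD and water at q under 0.05 (limma with Storey q-values over all probe sets), where 0.472% of all probe sets were altered. At an unadjusted p under 0.05 there was 1 such member, Mtmr7, where 8.30% of all probe sets reached that level. Of the 8, Mtmr3, Mtmr7, Mtmr9, Mtmr12 and Mtmr14 had a log2 difference below 0, and Mtmr2, Mtmr4 and Mtmr6 one above 0. Over all probe sets 43.7% were below 0. The median difference was −0.03 over the 8 members and 0.01 over all probe sets.

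**Figure D1:**
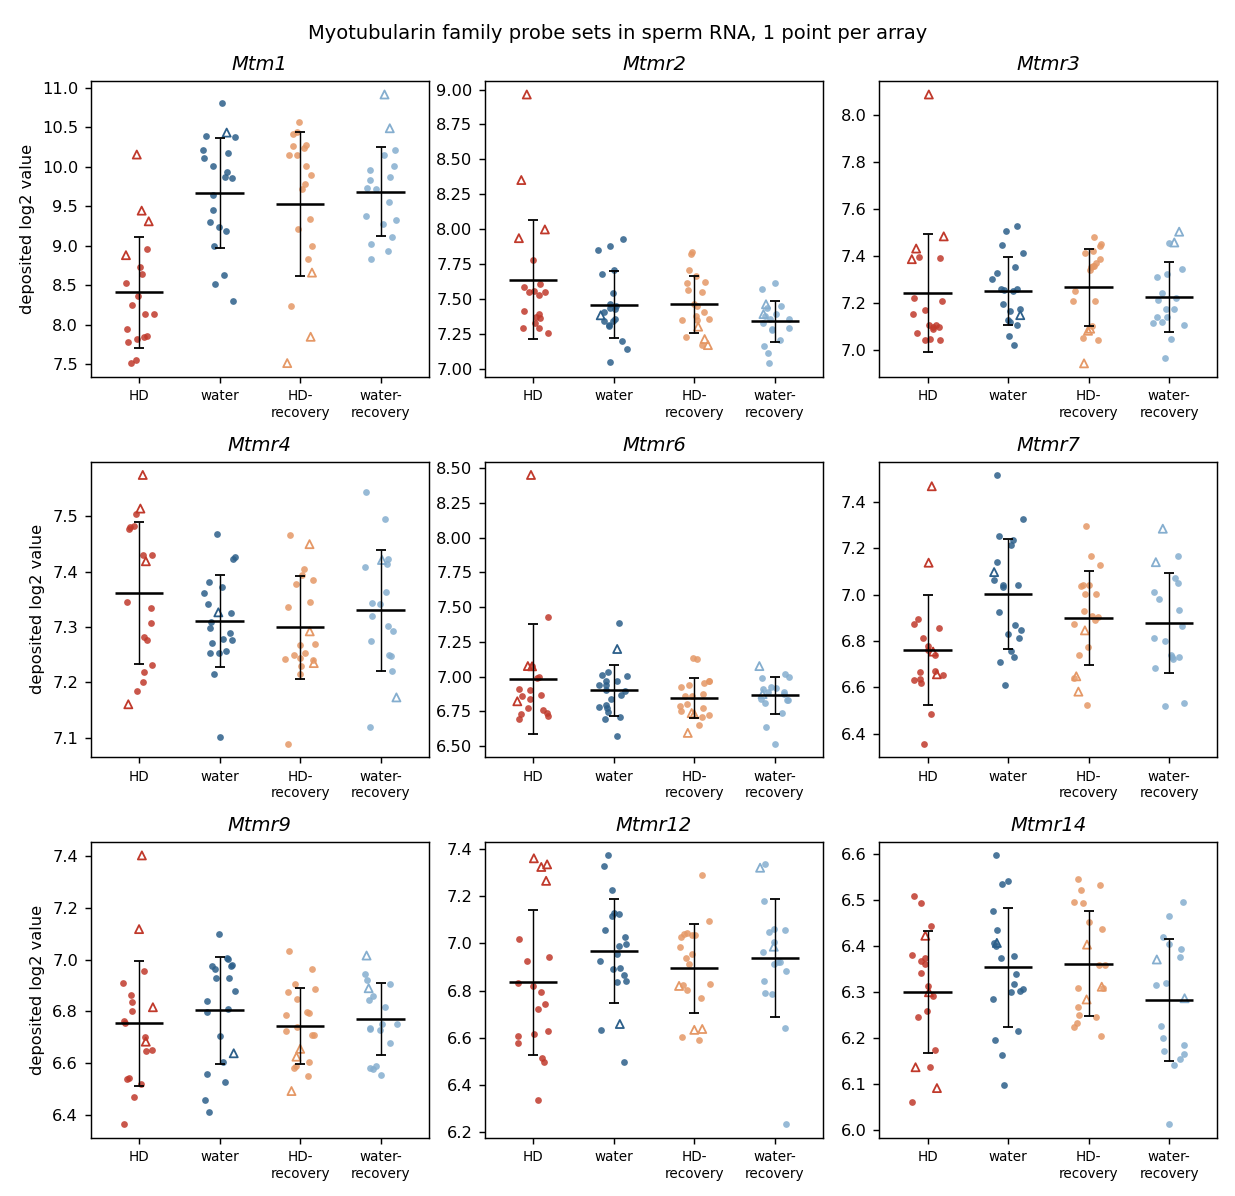
Deposited log2 values (y axis, a separate range for each panel) of the 9 measured members in the HD, water, HD-recovery and water-recovery groups (x axis), 1 point per array. Open triangles are the 10 arrays that stood apart, bars are means and whiskers SDs; Mtm1 averaged 8.41 in HD arrays, against 9.67 in water arrays, and the highest HD values of Mtmr2, Mtmr3 and Mtmr6 are open triangles.

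Mtmr7, an active phosphatase that pairs with Mtmr9, came nearest to the threshold. Its log2 value in HD arrays had a lowest of 6.36, a median of 6.74 and a highest of 7.47, against 6.61, 7.04 and 7.52 in water arrays. The ranges overlapped over most of their width, yet 17 of 19 HD arrays were under the median of water arrays. The log2 difference was −0.24 (SE 0.08, 1.18-fold) with an unadjusted p of 0.00249 and q = 0.158 by limma. The highest HD value belonged to replicate 14, the array that was also highest for Mtm1. Without that single array the difference was −0.28 and passed the test (q = 0.0185, limma), where 1.29% of all probe sets passed. Leaving out all arrays that stood apart gave −0.30 (SE 0.07, limma q = 0.00216), and its median was then 6.67 in 15 HD arrays and 7.03 in 19 water arrays.

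Mtmr12, the inactive partner of Mtm1, had a lowest log2 value of 6.34, a median of 6.79 and a highest of 7.36 in HD arrays, against 6.50, 6.97 and 7.37 in water arrays. The groups overlapped almost fully, and 14 of 19 HD arrays were under the median of water arrays. The difference was −0.13 (SE 0.08, limma q = 0.776). Its 4 highest HD values all came from the 4 HD arrays that stood apart, and without such arrays the difference was −0.28 (SE 0.07, limma q = 0.00353).

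Mtmr2, the member needed for spermatogenesis in mice, was not lower. Its log2 value had a lowest of 7.26, a median of 7.55 and a highest of 8.96 in HD arrays, against 7.05, 7.42 and 7.93 in water arrays. The 4 highest HD arrays were again the 4 that stood apart, and each of them lay above every water array. The difference was 0.18 (SE 0.11, limma q = 0.751), and without the arrays that stood apart it was −0.01.

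The remaining members differed by little. Mtmr3 and Mtmr4, which carry a FYVE domain, had log2 differences of −0.01 (limma q = 0.993) and 0.05 (q = 0.887). Mtmr6, an active phosphatase, had 0.08 (limma q = 0.964), and its inactive partner Mtmr9 had −0.05 (q = 0.977). Mtmr14, a more distant phosphatase known from muscle and autophagy, had −0.05 (limma q = 0.906). HD replicate 5 gave the highest HD value of Mtmr2, Mtmr3, Mtmr4, Mtmr6 and Mtmr9.

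The count of altered members changed when the arrays that stood apart were left out, as did the count over the whole array. With them left out, 3 of the 8 members passed (limma), all lower in HD: Mtmr3 (−0.11, q = 0.0439), Mtmr7 and Mtmr12. Of all probe sets 30.2% then passed, 12.8% as lower and 17.4% as higher in HD, and with the labels exchanged these directions would turn. With array weights 2 of the 8 passed, Mtmr7 and Mtmr12, beside 17.7% of all probe sets. With the first component as a covariate 2 passed, Mtmr7, lower in HD, and Mtmr2, higher in HD (0.18, limma q = 0.0243), beside 5.00% of all probe sets.

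**Figure D2:**
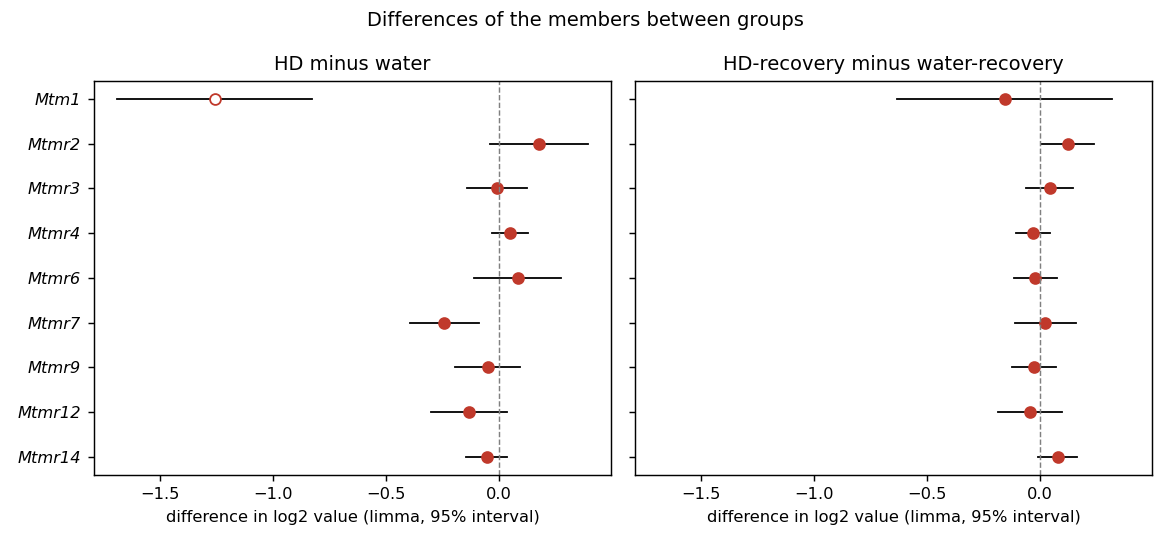
Log2 differences with 95% limma intervals (x axis) of the 9 members (rows) for HD minus water on the left and HD-recovery minus water-recovery on the right. The open symbol marks Mtm1 in HD minus water, −1.26, which chose the family and was not tested, and among the tested members the intervals of Mtmr7 on the left and Mtmr2 on the right leave out 0, though neither passed after adjustment.

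After the recovery, the design asks whether exposed rats still differed from controls of their age, and here Mtm1 could be tested. None of the 9 members was altered (limma, q = 1 for each), and 0% of all probe sets were. At an unadjusted p under 0.05 there was 1 member, Mtmr2, where 4.51% of all probe sets reached that level. Mtm1 in HD-recovery arrays had a lowest log2 value of 7.52, a median of 9.84 and a highest of 10.56, against 8.83, 9.72 and 10.91 in water-recovery arrays. The ranges overlapped throughout the upper part, while 5 of 20 HD-recovery arrays lay below every water-recovery array. These were replicates 9, 2, 1, 16 and 7, at 7.52, 7.85, 8.23, 8.66 and 8.83, and replicates 9, 2 and 16 were the 3 HD-recovery arrays that stood apart. The means were 9.53 ± 0.91 in HD-recovery and 9.68 ± 0.56 in water-recovery arrays (SD, n = 20 and 18), a log2 difference of −0.16 (SE 0.23, 95% interval −0.63 to 0.32). The difference turned to 0.24 (limma q = 0.165) when the arrays that stood apart were left out.

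Mtmr2 in HD-recovery arrays had a lowest log2 value of 7.17, a median of 7.43 and a highest of 7.84, against 7.04, 7.36 and 7.61 in water-recovery arrays. The difference was 0.12 (SE 0.06, unadjusted p = 0.0449, limma q = 1). It was 0.17 and passed once the arrays that stood apart were left out (limma q = 0.0355), beside 13.1% of all probe sets. The other 7 members had differences between −0.04 and 0.08.

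Rats were also compared across the recovery, with age and the end of exposure changing together. Mtm1 was 1.11 higher in HD-recovery than in HD arrays on the log2 scale (SE 0.23, 2.16-fold), and 17 of 20 HD-recovery arrays lay above the HD median. In water-recovery minus water its difference was 0.01 (SE 0.23). The interaction, HD-recovery minus water-recovery less HD minus water, was 1.10 (SE 0.33). On the arrays that did not stand apart the interaction was 1.73 (SE 0.27) and HD-recovery minus HD 1.66 (SE 0.20). These values also depend on the labels of the HD and water arrays. With those labels exchanged, the HD-recovery mean of 9.53 would stand against 9.67 instead of 8.41. The water-recovery mean of 9.68 would stand against 8.41 instead of 9.67, and the interaction would change too. All the values of Mtm1 given here share the HD or water arrays that brought it to attention and carry no test.

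Of the other 8 members none was altered in HD-recovery minus HD (limma, smallest q = 0.49), where 0.154% of all probe sets were, or in water-recovery minus water (smallest q = 0.882) or the interaction (q = 1 for each), where 0% were. The interaction of Mtmr7 was 0.26 (SE 0.10, unadjusted p = 0.0111), the widest of the 8, and that of Mtmr14 was 0.13 (SE 0.06, unadjusted p = 0.0321). At that level stood 3.38% of all probe sets. On the 67 arrays that did not stand apart, 6 of the 8 members passed the interaction test (limma), beside 56.8% of all probe sets, with 0.40 for Mtmr7 (q = 0.000989) and 0.30 for Mtmr12 (q = 0.00644). In HD-recovery minus HD 3 of the 8 then passed, Mtmr3, Mtmr7 and Mtmr12, each higher in HD-recovery, beside 57.4% of all probe sets. Array weights let 4 of the 8 pass the interaction test and 3 pass in HD-recovery minus HD, beside 33.7% and 45.2% of all probe sets.

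In the deposited values with the differences between groups removed, 7 members moved together and 2 did not. Correlations were taken over the 77 arrays after the mean of each group was removed, for all 36 pairs, with permutation within groups and Benjamini-Hochberg adjustment over the pairs. All 21 pairs among Mtm1, Mtmr2, Mtmr3, Mtmr6, Mtmr7, Mtmr9 and Mtmr12 passed by Pearson's r and by Spearman's rho, with r between 0.29 and 0.78 and a median of 0.58. None of the 15 pairs with Mtmr4 or Mtmr14 passed, with r between −0.21 and 0.22. This depended on the scaling. With array medians centred, Mtmr4 passed with Mtmr2, Mtmr3, Mtmr6, Mtmr7, Mtmr9 and Mtmr12, at r between 0.27 and 0.46. After quantile normalization, Mtmr14 passed with Mtm1 (r = 0.32), Mtmr3 (0.29) and Mtmr9 (0.31). The closest pair was Mtmr2 with Mtmr3 (r = 0.78, rho = 0.70, permutation adjusted p = 3.3e-05 for r). Mtm1 was closest to Mtmr7 (r = 0.69, rho = 0.68, permutation adjusted p = 3.3e-05 for r), at 0.63 in HD, 0.72 in water, 0.75 in HD-recovery and 0.72 in water-recovery arrays. With its partner Mtmr12 Mtm1 had r = 0.61 and rho = 0.62. When the 2 arrays farthest from the median were left out, r among the 7 members lay between 0.20 and 0.69. Without the arrays that stood apart 17 pairs passed, and r among the 7 lay between 0.15 and 0.64.

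Much of this was shared with the array as a whole. The 7 members correlated with the first component at r between 0.59 and 0.83, Mtm1 highest, whereas Mtmr4 had 0.09 and Mtmr14 −0.16. Of all probe sets, 43.6% had an r with Mtm1 above 0.5 in size. With the component removed as well as the group means, 4 pairs passed the permutation test. Mtm1 with Mtmr7 kept r = 0.46 (permutation adjusted p = 0.0032), and Mtmr2 with Mtmr3 and with Mtmr6 kept r = 0.36 and 0.42. Mtm1 with its partner Mtmr12 had only r = 0.04 left (permutation adjusted p = 0.987). Mtm1 with Mtmr2 turned to r = −0.41 (permutation adjusted p = 0.011).

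**Figure D3:**
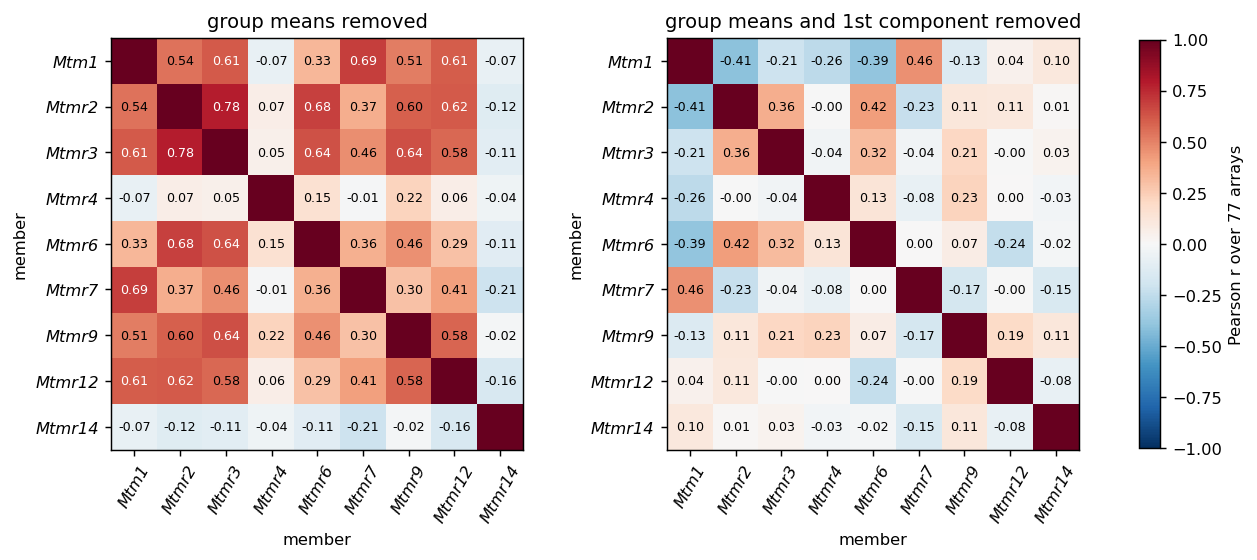
Pearson r between members (both axes) over 77 arrays with group means removed, on the left as they are and on the right with the first component removed too; colour runs from −1 to 1. On the left Mtmr4 and Mtmr14 lie near 0 with the other 7 members, and on the right Mtm1 keeps 0.46 with Mtmr7 and has −0.41 with Mtmr2.

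The 5 named genes most like Mtm1 over the 77 arrays, by r with group means removed, were Pebp1 (r = 0.97), Nupr2 (0.97), Csnk1g2 (0.96), Cep112 (0.96) and Gpat4 (0.96). Pebp1 encodes an inhibitor of Raf kinase, Csnk1g2 a casein kinase, Cep112 a centrosomal protein and Gpat4 an acyltransferase of glycerolipid synthesis. Their log2 differences, HD minus water, were −0.32, −0.92, −0.58, −0.80 and −0.75 in the same order, on arrays that Mtm1 shares.

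Markers of other cells moved with Mtm1. Mtm1 was set against the mean of each of 6 marker lists within each group, 24 relations in all, of which 14 passed by r and 15 by rho (permutation, adjusted over the 24). With the leukocyte and macrophage markers r was 0.87 in HD, 0.81 in water, 0.87 in HD-recovery and 0.58 in water-recovery arrays (rho 0.81, 0.74, 0.86 and 0.61, permutation adjusted p of r 0.00012, 0.00012, 8e-05 and 0.022). With the erythroid markers it was 0.88, 0.73, 0.84 and 0.67 in the same order (rho 0.88, 0.77, 0.72 and 0.62). Over all arrays both lists passed in every group, and r stayed at 0.64 or above when the 2 farthest arrays were left out. A high r with Mtm1 was common on the array. With group means removed, 43.6% of all probe sets had an r with Mtm1 above 0.5 in size.

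The sperm markers ran upward with Mtm1 too, at r = 0.45 in HD, 0.72 in water, 0.67 in HD-recovery and 0.61 in water-recovery arrays, and passed in the last 3 by permutation of r. By rho the water-recovery relation did not pass (0.40, permutation adjusted p = 0.118). Left without the 2 farthest arrays, r was 0.23 in water-recovery and 0.40 in HD-recovery arrays. By rho over all its arrays the HD-recovery relation passed (0.58, permutation adjusted p = 0.0186). The Sertoli cell markers ran the other way, at −0.41, −0.70, −0.87 and −0.54 in the same order of groups, and passed in all but HD by r and in all groups by rho (−0.56, −0.68, −0.81 and −0.51). When the 2 farthest arrays were left out, r was −0.73 in HD, −0.60 in water, −0.79 in HD-recovery and −0.34 in water-recovery arrays. In water-recovery arrays rho was close to the threshold (permutation adjusted p = 0.0498). None of the epididymal or fibroblast relations passed by r. By rho the fibroblast and muscle relation in water arrays passed, close to the threshold (−0.49, permutation adjusted p = 0.0498). On the arrays that did not stand apart 9 of the 24 passed. Which lists these belonged to was not recorded, so the leukocyte and erythroid result is given for all arrays only.

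Between groups, the mean of the 24 leukocyte and macrophage markers was 7.34 ± 0.21 in HD and 7.56 ± 0.17 in water arrays (SD), with array means between 7.12 and 7.85 in HD and between 7.22 and 7.89 in water. Of these 24 genes, 20 had a log2 difference below 0, beside 43.7% of all probe sets. None was altered (limma), and their median was −0.18, against 0.01 over all probe sets. In HD-recovery minus water-recovery Mtm1 differed by −0.16 (SE 0.23), a difference that changed sign without the arrays that stood apart. With all arrays, 21 of the 24 marker genes were below 0 in that comparison, where the median of all probe sets was below 0 too. None of the 24 was altered (limma), beside 0% of all probe sets. Their median was −0.06, against −0.01 over all probe sets. The mean of the 6 erythroid markers was 7.35 ± 0.21 in HD and 7.58 ± 0.24 in water arrays. In HD minus water 1 of the 6, Ahsp, a chaperone of alpha haemoglobin, was altered (−0.25, limma q = 0.0274), beside 0.472% of all probe sets. The sperm marker mean was 10.49 ± 0.47 in HD and 10.39 ± 0.49 in water arrays. Of these 15 genes 7 had a difference below 0, beside 43.7% of all probe sets. Among them 1, Odf1 of the outer dense fibres, was altered (−0.22, limma q = 0.0445), beside 0.472% of all probe sets. The other 14 ran both ways without passing, with 0.78 for Akap4 and 0.69 for Tnp1 against −0.58 for Pgk2 and −0.53 for Oaz3. The Sertoli cell marker mean was 6.79 ± 0.15 in HD and 6.73 ± 0.11 in water arrays. The part of these markers in the difference of Mtm1 was not tested.

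**Figure D4:**
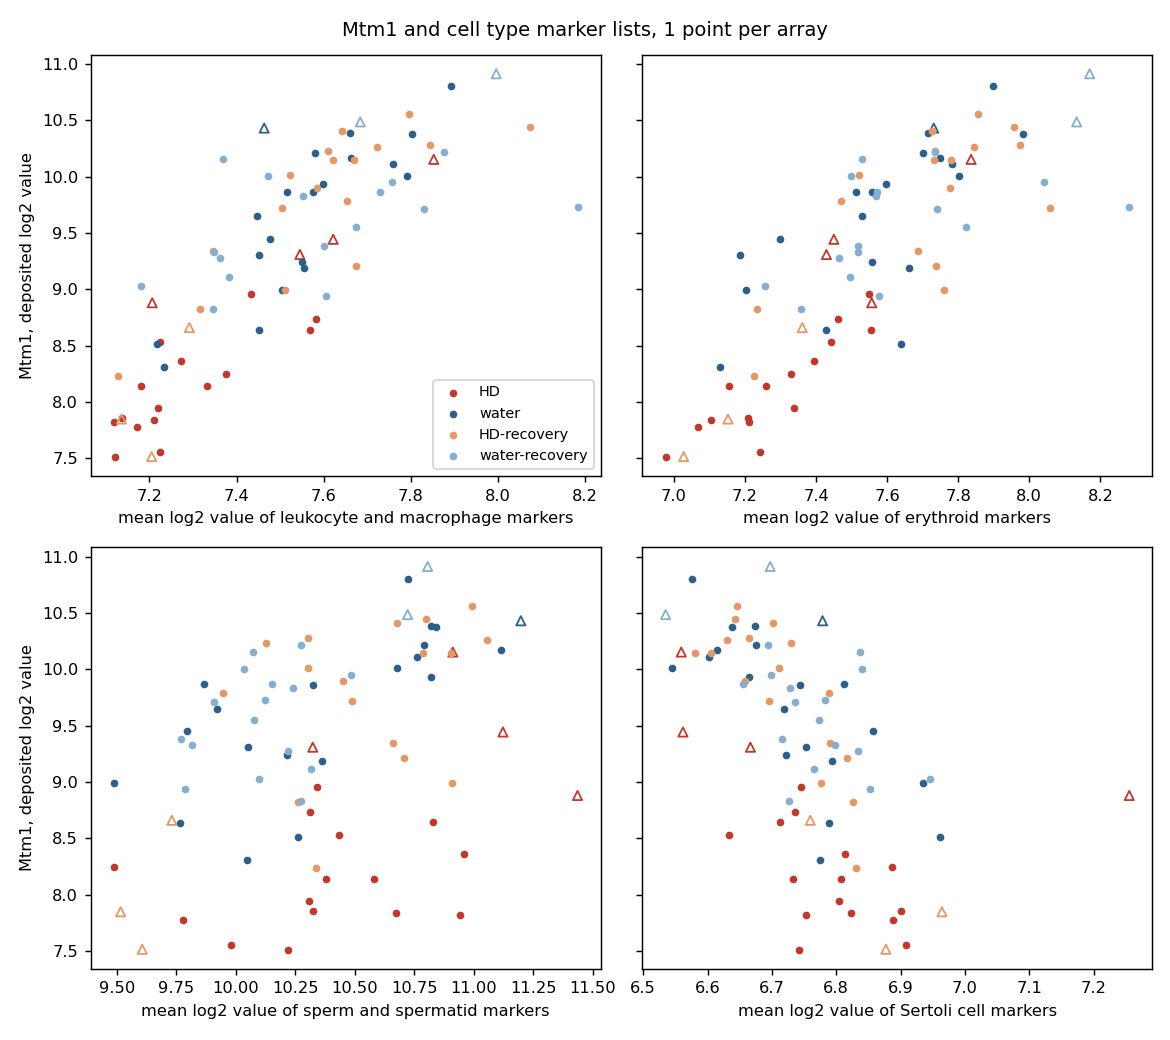
Log2 value of Mtm1 (y axis) against the mean log2 value of 4 marker lists (x axes), 1 point per array, coloured by group, with open triangles for the arrays that stood apart. Mtm1 runs upward with the leukocyte and erythroid means in every group and downward with the Sertoli mean, and the HD arrays sit at the lower end of Mtm1.

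The rest of the PI3P pathway was read from 7 lists holding 100 genes besides the members, of which 86 were measured. None was altered in HD minus water or in HD-recovery minus water-recovery (limma), beside the 0.472% and 0% of all probe sets given above. The median log2 difference of the 86 was −0.01 and 0.02 in these 2 comparisons, against 0.01 and −0.01 over all probe sets. The 2 measured relatives outside the member list were Sbf2, an inactive myotubularin that binds Mtmr2, and Mtmr10. Sbf2 had a difference of −0.27 (SE 0.09, unadjusted p = 0.00678, limma q = 0.261) in HD minus water, the smallest p of all 86.

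Of 9 genes of the PI3P kinases and their complexes, 7 had a difference below 0 in HD minus water. Of all 86 genes 52 did, beside 43.7% of all probe sets. In HD-recovery minus water-recovery 3 of the 9 and 33 of the 86 did, where the median over all probe sets was −0.01. Uvrag, a subunit of one form of the PI3P kinase complex, had −0.21 (limma q = 0.466), whereas the kinase itself, Pik3c3, had 0.11 (q = 0.499). In the complex that makes phosphatidylinositol 3,5-bisphosphate, the kinase Pikfyve had 0.06 (limma q = 0.935), the scaffold Vac14 −0.08 and the phosphatase Fig4 −0.0017. The smallest p among other phosphatases was that of Inpp4b (−0.10, limma q = 0.498), which acts on phosphatidylinositol 3,4-bisphosphate, and among other kinases that of Pik3cd (−0.13, q = 0.561), the leukocyte form of PI3-kinase. Among 32 PI3P effectors it was that of Snx12 (−0.17, limma q = 0.419), a sorting nexin, and among 9 partners that of Bin1 (−0.06, q = 0.899), which bends membranes and is, like MTM1, mutated in human centronuclear myopathy.

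In HD-recovery minus water-recovery the smallest p of each list belonged to Mtmr10 (0.15, limma q = 0.948), Becn1 (−0.04, q = 1), Vac14 (0.08, q = 1), Inpp5k (0.18, q = 1), Pik3r6 (−0.07, q = 1), Zfyve1 (0.12, q = 1) and Des (−0.14, q = 0.798). Des encodes desmin, an intermediate filament of muscle that binds MTM1. Without the arrays that stood apart, 38 of the 86 genes (44.2%) passed in HD minus water, 3 higher and 35 lower, beside 30.2% of all probe sets, with Uvrag at −0.36 (limma q = 0.000784) and Sbf2 at −0.40 (q = 0.00101). In the recovery comparison 14 of the 86 (16.3%) then passed, 11 higher and 3 lower, beside 13.1% of all probe sets.

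**Figure D5:**
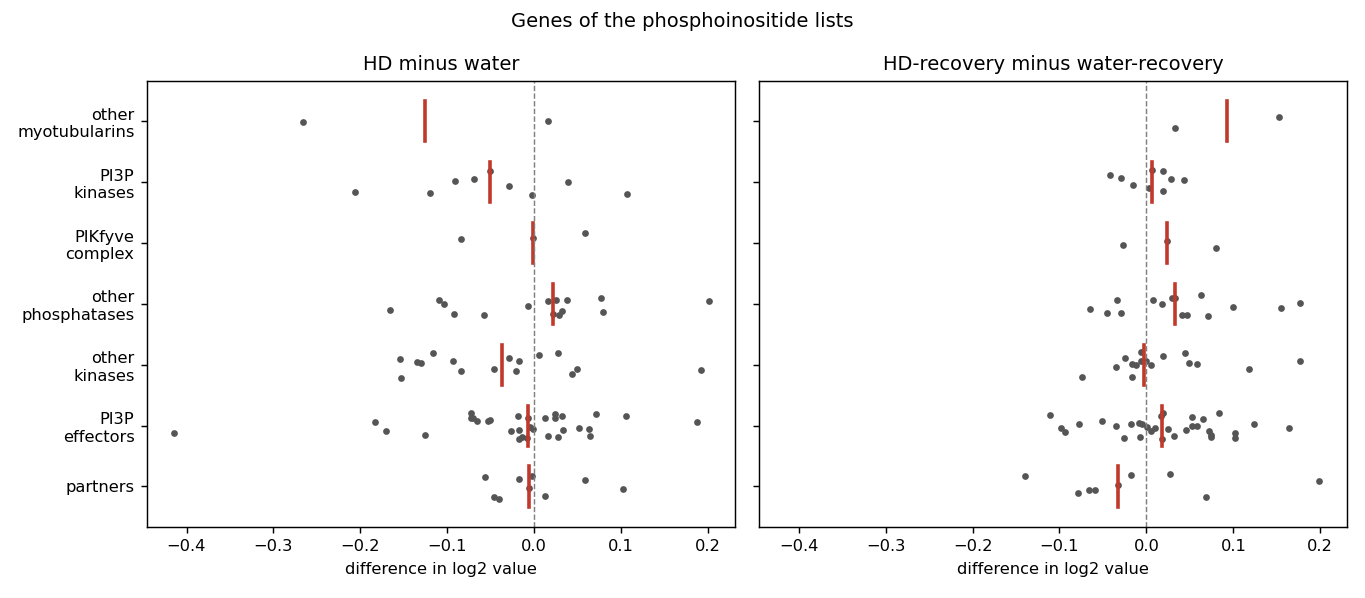
Log2 differences (x axis) of the 86 measured genes of the 7 phosphoinositide lists (rows), 1 point per gene, for HD minus water on the left and HD-recovery minus water-recovery on the right; red bars are list medians. The points lie on both sides of 0 in the larger lists, and no gene passed the test.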

How the data were processed

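RNA of cauda sperm was hybridised to Affymetrix whole-transcript rat gene arrays, 1 per rat. The authors deposited 1 table of normalized values, taken here to be log2 from their range (2.51 to 14.63). How they were normalized is not given in the sources used here, and limma is named in the submitters' processing notes. The number of arrays limits the precision. The members, gene lists and tests were chosen with earlier results of these data known.

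No value was filtered or rescaled. As in the study's methods, a separate limma fit was made for each exposed group and its control (version 3.58.1 in R 4.3.3, lmFit and eBayes) over all 29214 probe sets, Storey q-values were computed from its p-values, and a transcript at q under 0.05 counted as altered. Comparisons across the recovery and the interaction came from 1 fit of all 4 groups. Mtm1 was tested only in HD-recovery against water-recovery. Arrays stood apart when their median correlation with their group lay over 3 scaled median absolute deviations below the group's median. Correlations used 100000 two-sided permutations, whose smallest p is 1e-05. The named genes were all members, of each pathway list the genes altered or with the smallest p, and the 5 genes most correlated with Mtm1, with further genes named for their role. The limma step was tested on simulated data. Alternatives were another adjustment, other samples in the fit, 2 scalings, array weights, a filter on dim probe sets, the first component as a covariate, leaving out arrays and the replicate number as a block. Alternatives for the pathway genes and the marker correlations without arrays that stood apart were added after the data were seen. Probe sets with several symbols were not named.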

Additional observations from a re-analysis of the deposited data

How the results depend on the processing

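The log2 difference of Mtm1, HD minus water, lay between −1.49 and −1.25 under every alternative listed above, and between −1.36 and −1.20 in the 39 fits that each left out 1 array. Adjustment by Benjamini-Hochberg, other samples in the fit, both scalings, the filter on dim probe sets and the replicate block left the counts of altered members and pathway genes at 0. Other counts moved. With array weights the altered members (limma) were 2 in HD minus water and 0 in HD-recovery minus water-recovery. They were 3 in HD-recovery minus HD and 4 in the interaction. The pathway genes were 20 (23.3%) in HD minus water and 2 (2.33%) in HD-recovery minus water-recovery. Of all probe sets 17.7% were altered in HD minus water and 527 of 29214 in HD-recovery minus water-recovery. In HD-recovery minus HD 45.2% were, and in the interaction 33.7%. With the first component as a covariate 2 members and 3 pathway genes (3.49%) were altered in HD minus water, beside 5.00% of all probe sets. In HD-recovery minus HD 1 member was altered, beside 1383 of 29214 probe sets. Without the arrays that stood apart they were 3 members and 38 pathway genes in HD minus water, 1 member and 14 pathway genes in HD-recovery minus water-recovery, 3 members in HD-recovery minus HD and 6 in the interaction. Leaving out single arrays gave 0 to 1 altered members in HD minus water and 0 to 0 in the other comparisons. The 1 was Mtmr7 without HD replicate 14, beside 1.29% of all probe sets. The cause of these changes was not tested.

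Small differences changed sign, again with the cause not tested. With array weights, HD-recovery minus water-recovery was 0.089 for Mtm1 and 0.0012 for Mtmr6, HD-recovery minus HD was 0.059 for Mtmr9, and the interaction of Mtmr2 was 0.10. Without the arrays that stood apart, HD minus water was −0.0068 for Mtmr2 and −0.00017 for Mtmr6, and HD-recovery minus water-recovery was 0.24 for Mtm1, 0.020 for Mtmr6, 0.022 for Mtmr9 and 0.017 for Mtmr12. In that setting HD-recovery minus HD was 0.044 for Mtmr2 and 0.082 for Mtmr9, and the interaction was 0.18 for Mtmr2 and 0.020 for Mtmr6. After quantile normalization HD-recovery minus HD was 0.0063 for Mtmr9. When single arrays were left out, HD minus water of Mtmr3 lay between −0.054 and 0.0072, HD-recovery minus HD of Mtmr9 between −0.033 and 0.025, water-recovery minus water of Mtmr12 between −0.055 and 0.011, and the interaction of Mtmr2 between −0.080 and 0.018.

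With the first component removed, 4 of 36 pairs of members passed the permutation test, and r of Mtm1 was −0.41 with Mtmr2, −0.21 with Mtmr3, −0.39 with Mtmr6, −0.13 with Mtmr9 and 0.10 with Mtmr14. With array medians centred, r of Mtm1 was 0.22 with Mtmr4 and 0.17 with Mtmr14, and after quantile normalization it was 0.32 with Mtmr14 (permutation adjusted p = 0.0078). In these scalings some pairs with Mtmr4 or Mtmr14 passed, as given above. Without the arrays that stood apart, 9 of the 24 relations of Mtm1 with marker lists passed.

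Replicate numbers were not taken to pair the arrays, and pairing was not tested. Arrays of equal number in 2 groups had a median correlation of their deviations between −0.13 and 0.19. For unequal numbers the median lay between −0.02 and 0.03. The highest value, 0.19, was that of HD with HD-recovery, against −0.02 for unequal numbers, and 10 of its 19 pairs were over 0.1. With the replicate block 0 members and 0 pathway genes passed in each comparison, the interaction of Mtmr9 was −0.016 and water-recovery minus water of Mtmr12 was 0.016, and 6 probe sets were altered in HD-recovery minus HD, against 45 without it. The blocked fit of all 4 groups used the 68 arrays whose number occurs in every group instead of 77, and the block and the dropped arrays were not tested apart. Over the whole array, the probe sets altered in HD minus water numbered 138, and 5178 with array weights, 1462 with the component as a covariate, 8818 without the arrays that stood apart, 63 with array medians centred and 352 after quantile normalization.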
